A study of Mus musculus with 21 samples.

Results

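The 10 macrophage genes C1qa, C1qb, C1qc, Csf1r, Adgre1, Mrc1, Ms4a7, Apoe, Lyz2 and Cx3cr1 were followed through RNA-Seq libraries of mouse neutrophils (polymorphonuclear neutrophils, PMNs), and through libraries of renal tubular epithelial cells (TECs). They were chosen by name, with earlier results of these data known. All have high expression in macrophages or related mononuclear phagocytes and lie outside the MHC class II genes. They make up 10 of the 54123 genes to which transcripts were assigned. For each gene the estimated reads of its transcripts were added over both files of a library. All 10 genes passed the filter on low counts in each of the 3 fits used.

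Macrophages and neutrophils are both myeloid phagocytes, but they divide the work. Neutrophils circulate for a short time and kill microbes with granule proteins, whereas macrophages live in tissues, take up dying cells and are the main source of the complement protein C1q, whose A, B and C chains assemble in equal numbers. The kidney holds a dense network of resident macrophages that carry the fractalkine receptor CX3CR1, the adhesion receptor F4/80 (Adgre1) and the growth factor receptor CSF1R. Lysozyme M (Lyz2) is made by macrophages and by neutrophils alike, so it does not separate these cells.

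All mice were wildtype C57BL/6 males of 8 to 12 weeks, given sham surgery or renal ischemia/reperfusion injury (IRI, in which both renal pedicles were clamped for 32 minutes). Before surgery they received remote ischemic preconditioning (RIPC, 3 limb cuff inflations of 5 minutes each about 15 minutes before clamping) or a control cuff procedure. PMNs, labelled as neutrophils from blood, and TECs from kidney tissue were isolated 24 hours later. The groups were PMNs Sham Control (2 libraries), PMNs Sham RIPC (3), PMNs IRI Control (2), PMNs IRI RIPC (3), TECs Sham Control (3), TECs Sham RIPC (3), TECs IRI Control (2) and TECs IRI RIPC (3), where the study states 3 libraries per group. The labels number the libraries but do not tie a library to an animal, so p-values measure the spread between libraries. The main question was whether the macrophage genes differed between PMNs after sham surgery (5 libraries) and after IRI (5 libraries).

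PMN libraries held 20881334 to 30507235 estimated reads, and TEC libraries 21479605 to 51624602. Levels are given as CPM, the reads of a gene scaled to a common library size by TMM within a cell type, unless given as TPM, which is also scaled by transcript length. The neutrophil label was checked with 15 neutrophil genes. S100a8 and S100a9, abundant cytosolic proteins of neutrophils, were present in every PMN library at 1973 CPM or more, and Ly6g, the antigen used to sort mouse neutrophils, at 17.2 to 112 CPM. The granule genes Camp and Ltf had no read in 3 and 2 of the 5 sham libraries. The summed neutrophil genes reached 6140.4 to 30815 CPM after sham surgery and 23768 to 43437 CPM after IRI.

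The PMN libraries also carried transcripts that mark other cells. The 10 proximal tubule genes summed to 1292 to 11218 CPM in sham PMN libraries and to 531 to 945 CPM after IRI, although the label reads blood. None of the 10 was at 0 in any PMN library. In 4 of the 5 sham libraries the summed MHC class II genes exceeded the summed neutrophil genes. PMNs Sham Control replicate 1 stood apart from the other sham libraries, with the highest neutrophil sum (30815 CPM) and the lowest proximal tubule sum (1292 CPM) among them, and PMNs Sham Control replicate 2 had the highest distal tubule sum (5065 CPM against 118 to 777 CPM in the other sham libraries). In bulk RNA, fewer cells of a type and less RNA per cell cannot be told apart.

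The C1q genes lie side by side on the minus strand of chromosome 4 (GRCm38), C1qb at 136880129 to 136886187, C1qc at 136889804 to 136893065 and C1qa at 136895917 to 136898803. The whole cluster spans 18675 bases, with 3616 bases between C1qb and C1qc and 2851 bases between C1qc and C1qa. The promoter windows of C1qb and C1qc, 250 bases before to 50 bases after the start (RefSeq, GRCm38.p6), are shown because these neighbours moved unequally in the libraries described next. Capitals mark the letters GAGGAA, or TTCCTC where the match is on the opposite strand, the core recognised by the myeloid factor PU.1.
C1qb promoter, chr4:136886151-136886450, minus strand: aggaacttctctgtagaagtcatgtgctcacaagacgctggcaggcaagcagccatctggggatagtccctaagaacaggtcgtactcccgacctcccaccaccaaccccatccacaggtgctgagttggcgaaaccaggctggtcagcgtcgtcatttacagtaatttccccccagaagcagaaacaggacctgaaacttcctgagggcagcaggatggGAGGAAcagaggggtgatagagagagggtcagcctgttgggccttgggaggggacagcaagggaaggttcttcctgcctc
C1qc promoter, chr4:136892865-136893164, minus strand: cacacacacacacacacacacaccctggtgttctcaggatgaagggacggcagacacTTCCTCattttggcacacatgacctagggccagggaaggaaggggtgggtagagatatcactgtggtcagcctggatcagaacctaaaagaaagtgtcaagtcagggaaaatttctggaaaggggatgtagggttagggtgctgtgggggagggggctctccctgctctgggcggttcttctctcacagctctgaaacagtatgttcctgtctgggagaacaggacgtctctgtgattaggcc
The match began 30 bases before the start in C1qb and lay 193 bases before it, on the other strand, in C1qc. Both strands were searched for these letters alone. Of 32851 promoter windows of 300 bases, 28.3% held the motif. Windows of 7 of the 10 macrophage genes were searched, 10 windows in all, and 6 of these windows held a match. They belonged to 5 genes (C1qb, C1qc, Mrc1, Ms4a7 and Apoe). The share of 28.3% counts windows, and the share of all genes with a match was not counted. The remaining macrophage genes were not searched, so whether their promoters hold the motif is not known here. The windows of Lyz2 and Cx3cr1 held none.

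The 3 C1q genes were abundant in PMN libraries after sham surgery and stood 5.23-fold to 22.9-fold lower after IRI. C1qa, the A chain, measured 1159 and 969.7 CPM in PMNs Sham Control and 2052, 2370 and 867 CPM in PMNs Sham RIPC. After IRI it measured 264 and 195 CPM in the control group and 371, 297 and 66.2 CPM with RIPC. Every IRI library lay below every sham library.

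C1qb, the B chain, measured 1657 and 1792 CPM in PMNs Sham Control, 2548, 2976 and 1219 CPM in PMNs Sham RIPC, 441 and 345 CPM in PMNs IRI Control, and 482, 503 and 95.4 CPM in PMNs IRI RIPC. Again the sham and IRI libraries did not overlap. PMNs IRI RIPC replicate 3 was the lowest library for both chains. The fold differences between IRI and sham surgery, averaged over RIPC and control, were 5.78 for C1qa (log2 fold change −2.53 ± 0.49 SE, adjusted p = 0.0915) and 5.23 for C1qb (−2.39 ± 0.47, adjusted p = 0.0962), by edgeR's quasi-likelihood test over 25002 genes.

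C1qc, the C chain, spread more widely. It measured 733 and 1109 CPM in PMNs Sham Control, 1299.6, 1797 and 145 CPM in PMNs Sham RIPC, 10.9 and 10.2 CPM in PMNs IRI Control and 257, 259 and 24.6 CPM in PMNs IRI RIPC. The groups overlapped here, since the lowest sham library (145 CPM) lay below both higher IRI RIPC libraries. The averaged difference was 22.9-fold (−4.52 ± 0.87, adjusted p = 0.0871). None of the C1q genes passed the threshold of 0.05 in this fit. With PMNs Sham Control replicate 1 left out, C1qc passed it (−4.64, adjusted p = 0.0366), as it did without PMNs Sham RIPC replicate 3. C1qa and C1qb without PMNs Sham Control replicate 1 gave −2.45 (adjusted p = 0.0554) and −2.4 (adjusted p = 0.051).

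**Figure D1:**
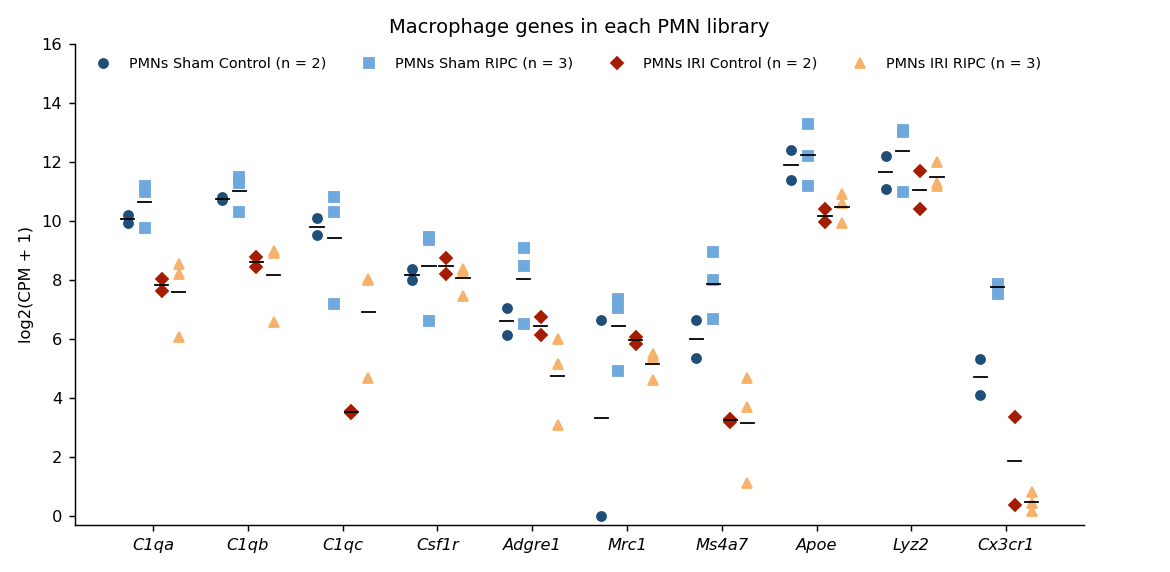
Level of each macrophage gene in every PMN library, as log2 of CPM plus 1, with a point per library, colours and symbols for the 4 PMN groups and a short line at the group mean. The IRI points of C1qa, C1qb, Ms4a7, Apoe and Cx3cr1 lie below all sham points, whereas those of the other 5 genes overlap with the sham points.

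Within a library, the A and B chains kept close to one ratio and the C chain did not. Reads of C1qa per read of C1qb lay between 0.541 and 0.805 in all 10 PMN libraries. Per transcript length, C1qa made up 30.0% to 40.9% of the summed C1q TPM. C1qc made up 19.4% and 25.6% in PMNs Sham Control, 20.2%, 23.0% and 6.74% in PMNs Sham RIPC, 1.43% and 1.68% in PMNs IRI Control, and 21.4%, 22.7% and 11.9% in PMNs IRI RIPC. Both IRI Control libraries therefore held the lowest C chain shares, and all IRI RIPC libraries held shares within the range of the sham libraries. Behind the shares of PMNs IRI Control stood 262 and 271 C1qc reads, against 6377 and 5180 reads of C1qa. No stretch of 50 bases in the C1q transcripts is shared with a gene outside the 10. Stretches shared among the 10 genes, and so between the C1q chains, were not searched for.

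**Figure D2:**
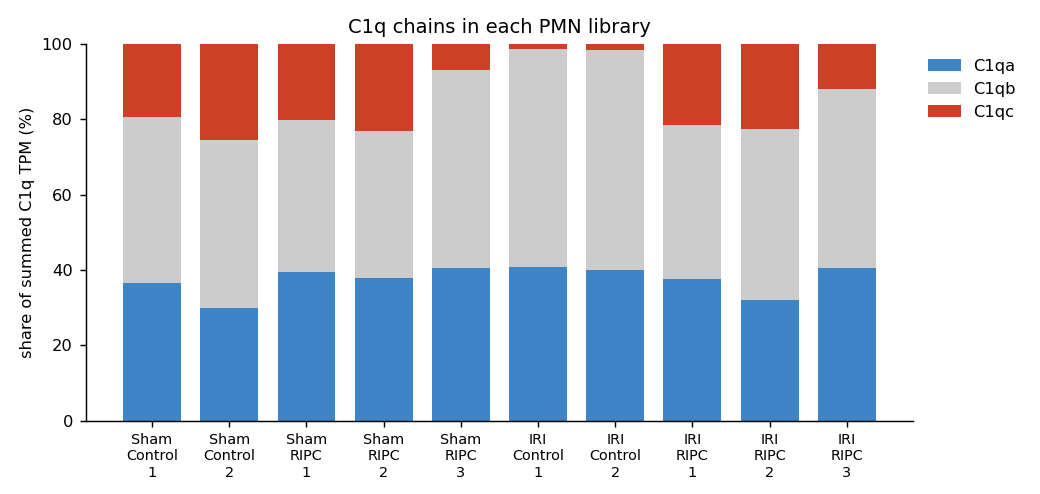
Share of the A, B and C chain genes in the summed C1q TPM of each PMN library, in percent, with 1 stacked bar per library and its replicate number below. The C1qc share is 1.43% and 1.68% in the 2 IRI Control libraries and 6.74% to 25.6% in the sham libraries.

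Among the receptors, Cx3cr1 differed most between sham surgery and IRI. Cx3cr1 (chromosome 9, 119901616 to 120069879, minus strand) encodes the receptor for fractalkine and marks resident macrophages and patrolling monocytes. It measured 16.3 and 38.9 CPM in PMNs Sham Control, 233, 227 and 185 CPM in PMNs Sham RIPC, 9.25 and 0.301 CPM in PMNs IRI Control, and 0.777, 0.123 and 0.346 CPM in PMNs IRI RIPC. In reads, the IRI libraries held 223, 8, 20, 3 and 9, so 4 of the 5 held 20 reads or fewer. The sham and IRI libraries did not overlap. The averaged difference was 54.3-fold (−5.76 ± 1.05, adjusted p = 0.0696), the farthest from 0 among the 10 genes. It passed the threshold without PMNs IRI Control replicate 1 (−7.7, adjusted p = 0.0416), the IRI library with 223 reads, and without PMNs Sham Control replicate 1 (−6.0, adjusted p = 0.0271).

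Csf1r, the receptor for the macrophage growth factors CSF1 and IL-34, stood 1.19-fold lower after IRI on average. It measured 331 and 252 CPM in PMNs Sham Control, 651, 697 and 95.7 CPM in PMNs Sham RIPC, 292 and 426 CPM in PMNs IRI Control, and 332, 176 and 319.6 CPM in PMNs IRI RIPC. All IRI libraries lay within the range of the sham libraries. The log2 fold change was −0.25 ± 0.5 (adjusted p = 0.919). Of the 50-base stretches of Csf1r transcripts, 14.3% also occur in transcripts of the overlapping gene Hmgxb3, so the division of reads between them is uncertain.

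Adgre1 (chromosome 17, 57358691 to 57483527, plus strand), which encodes F4/80, measured 132 and 69.7 CPM in PMNs Sham Control, 546, 354 and 90.7 CPM in PMNs Sham RIPC, 68.3 and 108 CPM in PMNs IRI Control, and 63.4, 7.53 and 34.5 CPM in PMNs IRI RIPC. A single IRI library, PMNs IRI Control replicate 2, lay within the sham range. The averaged log2 fold change was −1.71 ± 0.67 (adjusted p = 0.407). It lay at −3.23 ± 0.89 with RIPC (adjusted p = 0.304) and at −0.2 ± 1.0 without it (adjusted p = 1.0).

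Mrc1 (chromosome 2, 14229392 to 14332057, plus strand), the mannose receptor of resident and alternatively activated macrophages, depended on single libraries. It measured 98.7 CPM in PMNs Sham Control replicate 1 and had no read in replicate 2, where 3 reads, the limit that a count of 0 allows, are 0.139 CPM. The other sham libraries measured 163, 131 and 29.2 CPM, and the IRI libraries 56.4, 66.1, 41.0, 43.8 and 23.5 CPM. The log2 fold change of −0.63 ± 1.29 (adjusted p = 0.923) turned to 5.98 higher after IRI (adjusted p = 0.0323) when PMNs Sham Control replicate 1 was left out, with the library without a read then standing alone for its group. Without replicate 2 of that group it was −1.07 (adjusted p = 0.891).

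Ms4a7 (chromosome 19, 11321039 to 11336146, minus strand), a membrane protein of the CD20 family found on tissue macrophages, stood 13.5-fold lower after IRI. It measured 40.5 and 98.2 CPM in PMNs Sham Control, 253, 489 and 101 CPM in PMNs Sham RIPC, 8.83 and 8.13 CPM in PMNs IRI Control, and 11.9, 24.6 and 1.15 CPM in PMNs IRI RIPC. Every IRI library lay below every sham library. The log2 fold change was −3.76 ± 0.86 (adjusted p = 0.149).

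Apoe (chromosome 7, 19696109 to 19699188, minus strand), the lipid carrier that macrophages secrete, measured 5562 and 2625 CPM in PMNs Sham Control and 10024, 4723 and 2301 CPM in PMNs Sham RIPC. After IRI it measured 1393 and 995 CPM in the control group and 1921, 1517 and 979.5 CPM with RIPC. The groups did not overlap, although the lowest sham library (2301 CPM) and the highest IRI library (1921 CPM) were close. The averaged difference was 3.64-fold (−1.86 ± 0.42, adjusted p = 0.144).

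Lyz2 (chromosome 10, 117277331 to 117282321, minus strand), lysozyme M, measured 2248 and 4546 CPM in PMNs Sham Control, 8004, 8697 and 2019.7 CPM in PMNs Sham RIPC, 1358 and 3432 CPM in PMNs IRI Control, and 4091, 2396 and 2607 CPM in PMNs IRI RIPC. The ranges overlapped, and the log2 fold change was −0.77 ± 0.44 (adjusted p = 0.483). Its neighbour Lyz1 (chromosome 10, 117287797 to 117292868, minus strand), the lysozyme of Paneth cells, shares 15.4% of the 50-base stretches of Lyz2. Lyz1 took 0.977% of the lysozyme reads or less in every PMN library, and its own values, 0 to 44.9 CPM after sham surgery and 0 to 23.7 CPM after IRI, are uncertain for that reason (log2 fold change −1.37 ± 1.78, adjusted p = 0.812).

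Over the list, all 10 genes had fold changes below 0 between IRI and sham surgery, and none passed the threshold. The median log2 fold change was −2.13, against −0.01 over all 25002 genes. By edgeR 0 of 10 were called lower, where 0.052% of all genes were called lower, and 7 of 10 had an unadjusted p under 0.05 with lower values, where 4.98% of all genes did. By the Wald test of DESeq2, 6 of the 10 were called lower (C1qa, C1qb, C1qc, Ms4a7, Apoe and Cx3cr1), where 4.46% of all genes with an adjusted p were. For 5 of the 10 genes (C1qa, C1qb, Ms4a7, Apoe and Cx3cr1) every IRI library lay below every sham library, which held for 2.08% of all genes tested. The lowest adjusted p under edgeR belonged to Cx3cr1 and the highest to Mrc1. Since the 10 genes were chosen with earlier results of these data known, these shares describe the list and do not test it.

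The same genes are given next for each cuff procedure. Without RIPC, 8 of 10 were lower after IRI, with a median of −1.96. None passed the threshold by edgeR, where 0% of all genes were called lower. An unadjusted p under 0.05 was reached by 5 of them and by 4.45% of all genes. The Wald test called 1 lower, C1qc, where 1.98% of all genes were. C1qc showed the value farthest from 0 here (−6.45 ± 1.43, adjusted p = 0.606). With RIPC, all 10 were lower, with a median of −2.61. None passed the threshold by edgeR, where 0.028% of all genes were called lower. Of the 10, 7 had an unadjusted p under 0.05, as 10.1% of all genes did, and the Wald test called 5 lower (C1qa, C1qb, Ms4a7, Adgre1 and Cx3cr1), where 3.26% of all genes were. Cx3cr1 stood at −8.99 ± 1.47 with RIPC (adjusted p = 0.0569) and at −2.53 ± 1.34 without it (adjusted p = 0.736). These comparisons share a pooled estimate of the spread, and groups of 2 libraries enter the one without RIPC.

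**Figure D3:**
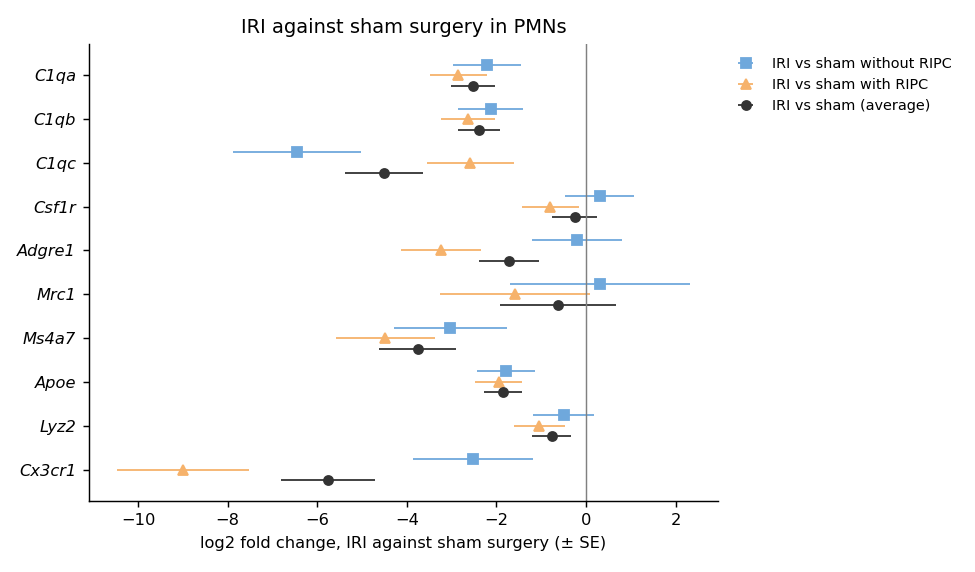
Log2 fold change of each macrophage gene between IRI and sham surgery in PMNs, with the SE as a horizontal bar, for libraries without RIPC (squares), with RIPC (triangles) and their average (circles). All circles lie below 0, from −0.25 for Csf1r to −5.76 for Cx3cr1.

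RIPC was compared with the control procedure within each surgery. After sham surgery the fold changes of all 10 genes were above 0, with a median of 0.8, and none had an unadjusted p under 0.05, where 4.6% of all genes did. Cx3cr1 gave the value farthest from 0, 2.96 ± 1.31 (adjusted p = 0.705), with the 3 RIPC libraries at 185 CPM or more and both control libraries at 38.9 CPM or less. By edgeR 0 of 10 were called, where 0.004% of all genes were, and the Wald test of DESeq2 called 0, where 4.77% of all genes were called. Without PMNs Sham Control replicate 1, 9 of the 10 lay above 0 (median 0.99), and without replicate 2 all 10 did (median 0.61). Other lists moved in this comparison too. Of the 15 neutrophil genes 14 lay below 0 (median −1.04), and 6 did without PMNs Sham Control replicate 1 (median 0.07). Of the 10 proximal tubule genes 9 lay below 0 (median −0.58), and 2 did without PMNs Sham Control replicate 2 (median 1.79). Their part in the values of the macrophage genes was not tested. After IRI, 5 genes lay above and 5 below 0. C1qc was 17.1-fold higher with RIPC (4.1 ± 1.25, adjusted p = 0.92) and Cx3cr1 11.3-fold lower (−3.5 ± 1.21, adjusted p = 0.92). Cx3cr1 rested on PMNs IRI Control replicate 1, since replicate 2 (0.301 CPM) lay within the RIPC range. By edgeR 0 of 10 were called after IRI, where 0% of all genes were, 2 had an unadjusted p under 0.05 (2.72% of all genes), and the Wald test called 1, C1qc (2.36% of all genes).

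Whether the effect of IRI depended on RIPC was tested as an interaction. Cx3cr1 gave −6.46 ± 1.82 (adjusted p = 0.719), C1qc 3.87 ± 1.52 (adjusted p = 0.719) and Adgre1 −3.03 ± 1.33 (adjusted p = 0.719), and these 3 had an unadjusted p under 0.05, as 5.74% of all genes did. By edgeR 0 of 10 were called, where 0% of all genes were, and the Wald test called 1, Cx3cr1, where 4.01% of all genes were. So a difference between the cuff procedures in the response to IRI was not shown by the main test for any of the 10 genes, at a biological coefficient of variation of 1.65 between PMN libraries.

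TECs, the other cell type of the study, held little RNA of most of these genes. Apoe was the exception, with 1301 to 8738 reads per library (median 115 TPM). C1qb had a median of 2.37 TPM, and the other 8 genes had medians of 0.22 TPM or less. C1qa and Mrc1 had no read in 6 of the 11 libraries, and C1qc and Adgre1 none in 5. A single TEC library after IRI with RIPC held 541 C1qa reads, where the median over TEC libraries after IRI was 0.

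Per transcript length, the order of the genes differed between PMNs after sham surgery and after IRI. After sham surgery the medians ran from Apoe (3489 TPM) through Lyz2 (1945 TPM), C1qb (1223 TPM), C1qa (1013 TPM) and C1qc (688 TPM) to Csf1r and Ms4a7 (both 49.6 TPM), Cx3cr1 (31.7 TPM), Adgre1 (27.8 TPM) and Mrc1 (11.5 TPM). The ranges of neighbours in this order overlapped, except between C1qc (106 to 1225 TPM) and Csf1r (12.2 to 93.6 TPM). After IRI the order was Lyz2 (1205 TPM), Apoe (980.1 TPM), C1qb (311 TPM), C1qa (221 TPM), Csf1r (42.1 TPM), C1qc (16.9 TPM), Adgre1 (11.5 TPM), Mrc1 (5.98 TPM), Ms4a7 (3.35 TPM) and Cx3cr1 (0.054 TPM). Here the ranges of neighbours overlapped except between Apoe (699 to 1260 TPM) and C1qb (67.4 to 319.5 TPM). Csf1r thus stood above C1qc in the medians after IRI and below it after sham surgery.

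All 10 genes were called higher in PMNs than in TECs after sham surgery, and 5 of 10 after IRI. In one fit of all 21 libraries, the log2 difference after sham surgery ran from 4.3 ± 0.48 for Apoe (adjusted p = 1.97e-05) to 10.88 ± 2.13 for Lyz2 (adjusted p = 0.0059), with a median of 8.86. Of all 31769 genes, 1.49% were called higher. Csf1r (6.86 ± 1.63, adjusted p = 0.0242) and Mrc1 (9.45 ± 2.08, adjusted p = 0.0165) were the least firm: leaving out replicate 1 or 2 of TECs Sham Control or of TECs Sham RIPC ended the call of Csf1r, and replicate 2 or 3 of TECs Sham Control or replicate 3 of TECs Sham RIPC that of Mrc1. Mrc1 without PMNs Sham Control replicate 1 gave 2.77 (adjusted p = 1.0), and C1qa was not called without TECs Sham Control replicate 2.

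After IRI the 5 genes called higher in PMNs, where 1.49% of all genes were again, were Apoe (3.07 ± 0.51), Adgre1 (9.59 ± 1.64), Csf1r (8.32 ± 2.04), C1qa (10.36 ± 2.38) and C1qc (10.15 ± 2.14), with adjusted p from 0.00159 to 0.0291. The call of Csf1r ended without either library of TECs IRI Control, and that of C1qa without TECs Sham Control replicate 2. For C1qa the fit gave 1312-fold, whereas its mean CPM in this fit (251 in PMNs, 4.2 in TECs) differed 59.8-fold. C1qa had no read in the TECs IRI Control libraries, so its size in the fit is uncertain. For Csf1r the fit gave 319.5-fold and the means (325 and 2.74 CPM) 118-fold. C1qc had at most 2 reads in any TEC library after IRI, so its mean in PMNs (119.6 CPM) was at least 938-fold higher than the floor of 3 reads per TEC library. C1qb lay at the threshold (5.13 ± 1.38, adjusted p = 0.0504), and Lyz2 (7.38 ± 2.17, adjusted p = 0.0801) and Mrc1 (4.79 ± 1.87, adjusted p = 0.252) did not pass it. Ms4a7 (1.91 ± 0.8, adjusted p = 0.283) and Cx3cr1 (1.24 ± 0.84, adjusted p = 0.555) were the lowest, and Cx3cr1 turned to −0.67 without PMNs IRI Control replicate 1.

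**Figure D4:**
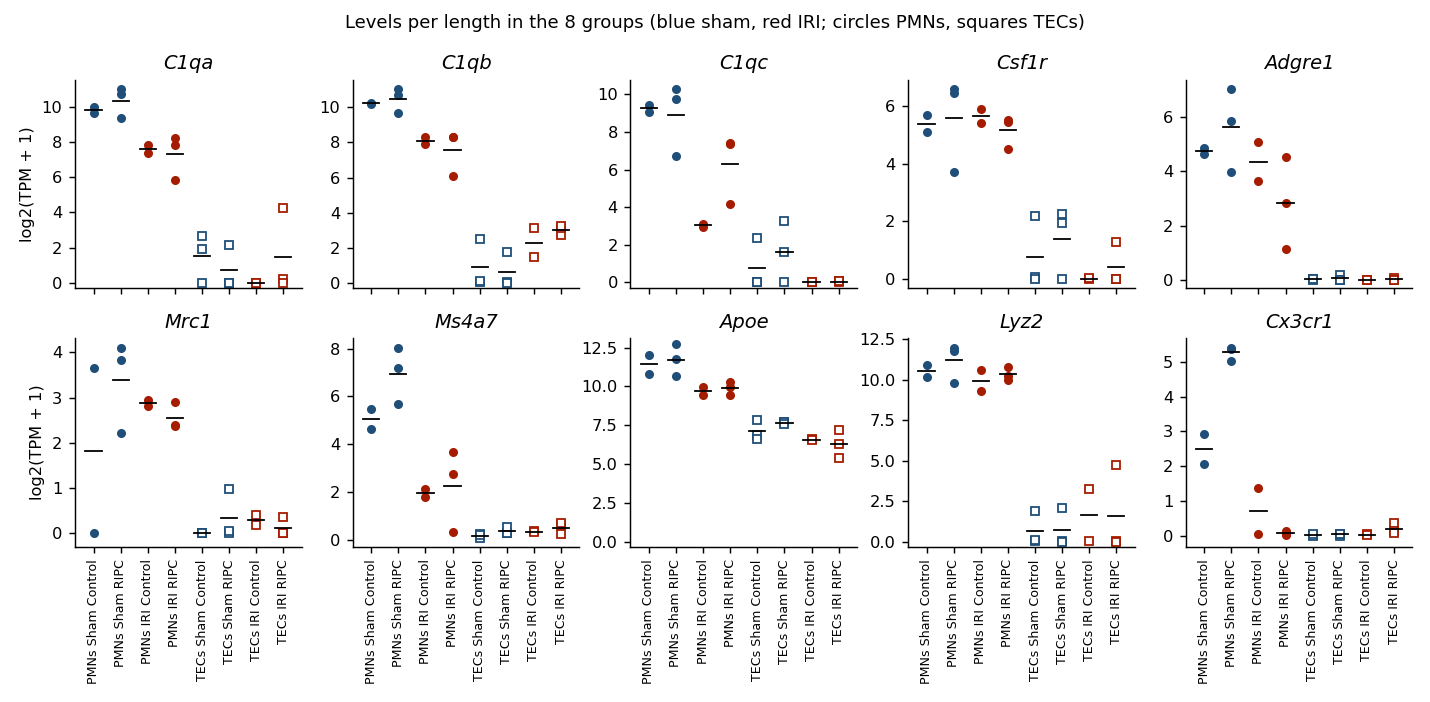
Level per transcript length of each macrophage gene, as log2 of TPM plus 1, in the 8 groups, with a point per library, a line at the group mean, sham surgery in blue and IRI in red, PMNs as circles and TECs as squares. Apoe is the one gene with more than 40 TPM in every TEC library, and the circles of Cx3cr1 after IRI lie at the level of the squares in 4 of 5 libraries.

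Within TECs the 10 genes did not move together after IRI. Fold changes were below 0 for 5 genes and above 0 for 5, with a median of 0.14 against 0.15 over all 25917 genes. By edgeR 0 of 10 were called, where 1.4% of all genes were, and the Wald test called 1, C1qc, among the 8 genes it tested, where 11.6% of all genes were. An unadjusted p under 0.05 was reached by 1 of the 10 (C1qc, −6.72 ± 2.85, adjusted p = 0.29), against 15% of all genes. C1qb was 5.74-fold higher after IRI (2.52 ± 1.61, adjusted p = 0.51), with 0 to 9.63 CPM after sham surgery and 3.16 to 19.5 CPM after IRI. For none of the 10 genes did the sham and IRI libraries of TECs separate, and the share of all genes that separated in TECs was not counted.

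RIPC against control in TECs gave 0 called genes of 10 after sham surgery, where 0% of all genes were called, and 0 of 10 after IRI, where 0.00386% were. An unadjusted p under 0.05 was reached by 1 gene after sham surgery (Mrc1, with no read in any control library) and by 0 after IRI, where 4.53% and 4.35% of all genes did, and the Wald test called 0 in both, where 2.08% and 3.56% were called.

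The effect of IRI in PMNs was then set against that in TECs. Cx3cr1 gave a difference of −7.05 ± 1.25 (adjusted p = 0.0645), Ms4a7 −4.67 ± 1.11 (adjusted p = 0.16), C1qb −4.91 ± 1.63 (adjusted p = 0.313) and Apoe −1.23 ± 0.64 (adjusted p = 0.569). By edgeR 0 of 10 were called, where 0% of all genes were, 3 had an unadjusted p under 0.05, as 9.76% of all genes did, and the Wald test called 4 of the 8 genes it tested (C1qb, Cx3cr1, Ms4a7 and Mrc1), where 11.2% of all genes were.

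The transcripts behind the reads differed as well. Of the Ms4a7 reads, 99.6% in TECs after sham surgery and 99.5% after IRI were assigned to 1 transcript with a retained intron (ENSMUST00000162785), against 3.19% in PMNs after sham surgery and 29.3% after IRI. The coding transcripts of Ms4a7 therefore had 0 or 1 read in each TEC library. In PMNs IRI RIPC replicate 3, the library with the fewest Ms4a7 reads, 88.3% came from the retained-intron transcript, and in PMNs IRI Control replicate 1 it was 79.5%. The share was 2.05% to 15.9% in the sham PMN libraries.

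Cx3cr1 reads were assigned mainly to ENSMUST00000177637 in PMNs after sham surgery (86.6%) and not at all in TECs. TEC libraries held at most 12 Cx3cr1 reads after sham surgery and 66 after IRI. After IRI this transcript took 134 of the 223 reads of PMNs IRI Control replicate 1 and 0 of the 40 reads of the other 4 libraries. Of the 50-base stretches of Cx3cr1 transcripts, 1.06% also occur in transcripts of 26 other genes, and their part in these low counts was not tested. For Adgre1, 94.2% and 96.4% of the PMN reads after sham surgery and IRI went to ENSMUST00000086763. None of the TEC reads did, but TEC libraries held at most 24 Adgre1 reads after sham surgery and 9 after IRI. Csf1r reads went to ENSMUST00000025523 for 88.5% and 85.1% in PMNs and for 3.64% and 0.615% in TECs, where ENSMUST00000115268 took 77.1% and 99.4%, although 1 library held 567 of the TEC reads after sham surgery and 1 held 313 of those after IRI. Mrc1 in PMNs IRI RIPC replicate 3 came to 90.8% from a transcript with a retained intron. C1qa, C1qb and Lyz2 have 1 transcript each in the annotation.

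Genes that act with the 10 were looked at as a list of 18 partners (C1q proteases and inhibitor, ligands, adaptor, lipoprotein receptors and myeloid transcription factors). Of the 18, 0 were called between IRI and sham surgery in PMNs by edgeR, 6 had an unadjusted p under 0.05, and the Wald test of DESeq2 called 5 of 13 tested. Of all genes, 0.416% were called by edgeR in either direction, 11.8% had an unadjusted p under 0.05 and 11.5% were called by the Wald test. The list had 13 genes above and 5 below 0 in the edgeR fit and a median of 2.39. That median includes genes near the floor, since 2 to 7 of the 18 had no read in each sham library and 4 to 6 in each IRI library. With at least 10 counts in every library, 7 of the 18 were left to test, with a median of 0.52. Csf1, a ligand of CSF1R, measured 0 to 34.9 CPM after sham surgery and 207 to 553 CPM after IRI (4.46 ± 1.65, adjusted p = 0.392). Tyrobp, the adaptor of activating myeloid receptors, measured 619 to 1123 CPM and 959.7 to 1583 CPM (0.38 ± 0.23, adjusted p = 0.516). Spi1, which encodes PU.1, measured 42.4 to 338 CPM and 50.0 to 645 CPM (−0.06 ± 0.5, adjusted p = 1.0). The proteases that C1q activates had almost no reads: C1s1 was at 0 in 4 of 5 sham and 3 of 5 IRI libraries, and C1ra reached at most 10.4 CPM.

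Other macrophage genes lay on both sides of 0. Of 15 such genes 14 were tested, 6 above and 8 below 0, with a median of −0.08. Cd14, the lipopolysaccharide co-receptor of monocytes, macrophages and activated neutrophils, rose from 512 to 2841 CPM after sham surgery to 7895 to 11248 CPM after IRI (2.76 ± 0.38, adjusted p = 0.0256), the 1 gene called by edgeR. That call ended without any of the 3 libraries of PMNs IRI RIPC and with all 21 libraries in one fit. The Wald test called 2 of 12 tested, Cd14 higher and Aif1, which encodes the macrophage protein IBA1, lower. Of all genes, 0.416% were called by edgeR and 11.5% by the Wald test, in either direction. The lysosomal proteases Ctss (−0.59 ± 0.31, adjusted p = 0.445) and Lgmn (−0.06 ± 0.4, adjusted p = 1.0) lay near 0. Vsig4, a complement receptor of resident macrophages, had no read in 4 of 5 sham libraries and in all 5 IRI libraries.

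Of 10 monocyte genes edgeR called 1, Nr4a1, the transcription factor of patrolling monocytes, which is also an early response gene. It rose from 66.4 to 226 CPM after sham surgery to 787 to 1232 CPM after IRI (2.53 ± 0.31, adjusted p = 0.018), and the call likewise ended without any of the 3 libraries of PMNs IRI RIPC and with all 21 libraries in one fit. The Wald test called Nr4a1 higher and Gngt2, a G protein subunit, lower. Of the 15 neutrophil genes edgeR called 2, both higher after IRI, namely Fpr1, the formyl peptide receptor (3.04 ± 0.5, adjusted p = 0.0468), and Il1r2, the decoy receptor for interleukin 1 (3.17 ± 0.53, adjusted p = 0.0489). The Wald test called 7 of the 15, all higher, and edgeR 0 with all 21 libraries in one fit. Between 0 and 6 were called with 1 library left out, 6 of them without PMNs Sham Control replicate 1, the sham library with the highest neutrophil sum. For the monocyte and neutrophil lists alike, the share of all genes called in either direction was 0.416% by edgeR and 11.5% by the Wald test. The median of the neutrophil list was 2.18 with all libraries, while S100a8 lay at 0.03 ± 0.35 (adjusted p = 1.0).

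The 5 MHC class II genes, which macrophages share with dendritic cells and B cells, had a median of −3.18, and 4 of them fell after IRI by edgeR, where 0.052% of all genes did (1 to 4 with 1 library left out, with H2-Aa alone called without PMNs IRI RIPC replicate 2, and 0 with all 21 libraries in one fit). Cd74 stood at 7899 to 18864 CPM after sham surgery and at 1098 to 3294 CPM after IRI (−2.68 ± 0.35, adjusted p = 0.0222).

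Tubule RNA in the PMN libraries differed in the same direction as the 10 macrophage genes. The 10 proximal tubule genes all lay below 0 between IRI and sham surgery, with a median of −2.49, and 0 were called by edgeR with all libraries, while all 10 had an unadjusted p under 0.05. By the Wald test of DESeq2 7 of the 10 were called lower, and by edgeR 6 were without PMNs Sham Control replicate 1 and 4 with all 21 libraries in one fit. Without PMNs Sham Control replicate 2 the median was −1.2, with 1 called and 5 at an unadjusted p under 0.05. With all PMN libraries, 0.052% of all genes were called lower by edgeR and 4.46% by the Wald test. Lower values with an unadjusted p under 0.05 were found for 4.98% of all genes. Kap, an abundant transcript of the proximal tubule, measured 871 to 7548 CPM after sham surgery and 309 to 581 CPM after IRI (−3.12 ± 0.56, adjusted p = 0.068). The 7 distal tubule and collecting duct genes had a median of −3.45 and 0 calls by edgeR, with 3 at an unadjusted p under 0.05 and 3 of 6 tested genes called by the Wald test. That median rested on PMNs Sham Control replicate 2, without which it was −0.48, with 1 gene at an unadjusted p under 0.05. In TECs the 10 proximal tubule genes also all lay below 0 between IRI and sham surgery, with a median of −2.22. There edgeR called 5 of them lower, where 1.4% of all genes were called in either direction. The part of kidney tissue cells in the levels of the macrophage genes was not tested.

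Genes of further cell types gave no calls by edgeR between IRI and sham surgery in PMNs. An unadjusted p under 0.05 was reached by 0 lymphocyte, 1 erythrocyte and platelet and 1 endothelial gene. By the Wald test 0 of 6 lymphocyte, 1 of 6 erythrocyte and platelet and 1 of 7 endothelial genes tested were called. Of all genes, 11.8% had an unadjusted p under 0.05 and 11.5% were called by the Wald test, in either direction. The medians were −0.22 over 9 lymphocyte genes, −0.66 over 6 erythrocyte and platelet genes and −0.85 over 7 endothelial genes. Their summed levels stayed at or below 129.9, 462 and 278 CPM in every PMN library.

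**Figure D5:**
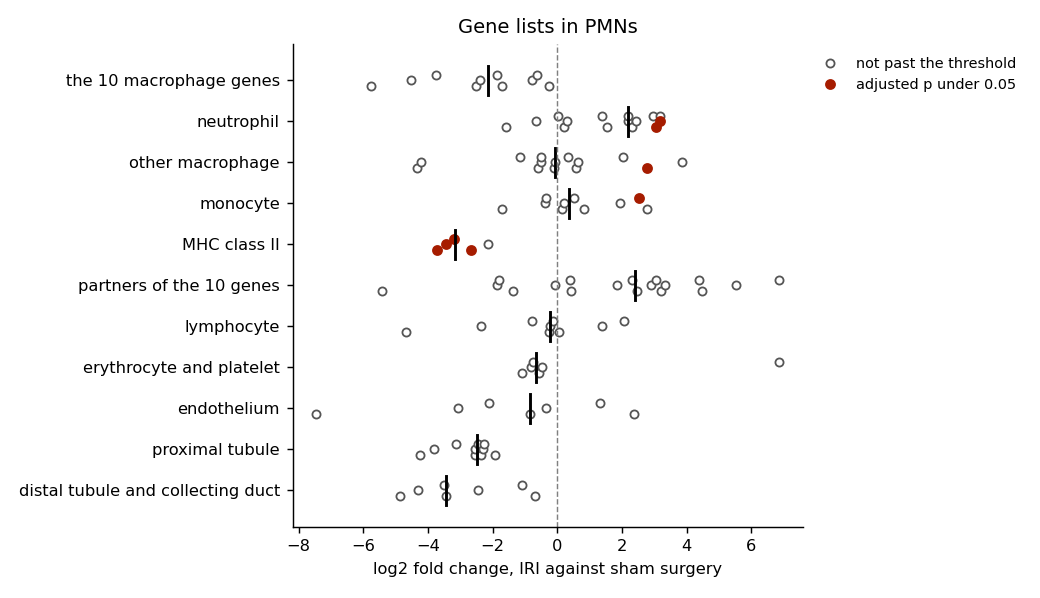
Log2 fold change between IRI and sham surgery in PMNs for each tested gene of 11 lists, with filled points for adjusted p under 0.05, a vertical bar at each list's median and a dashed line at the median of all genes tested. The 10 macrophage genes (median −2.13) and the 10 proximal tubule genes (median −2.49) lie below 0 without a filled point, and 4 of the 5 MHC class II genes are filled.

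The genes whose profile over the 10 PMN libraries came nearest to the mean profile of C1qa, C1qb and C1qc were Cd74, H2-Aa, Cd81, H2-Ab1 and H2-DMb1. Likeness was the root mean square difference of centred log2 of CPM plus 1, which was 0.656 for Cd74, 0.692 for H2-Aa, 0.721 for Cd81, 0.763 for H2-Ab1 and 0.767 for H2-DMb1, where the median over 24992 genes was 2.11. Cd81, a tetraspanin of many cell types, measured 254 to 753 CPM after sham surgery and 48.3 to 149 CPM after IRI. Of the genes averaged, C1qa lay at 0.511, C1qb at 0.584 and C1qc at 1.08, so the mean profile followed C1qc least. Of the other macrophage genes, Ms4a7 (0.883) and Apoe (0.974) lay nearest to the mean C1q profile, both nearer than C1qc. Mrc1 (2.62) and Cx3cr1 (2.03) lay farthest. This is a description over 10 libraries that share the contrast of sham surgery and IRI.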

How the data were processed

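RNA-Seq of 10 PMN and 11 TEC libraries was analysed. Per the labels, RNA of sorted cells was reverse transcribed from poly(A) and sequenced as single-end reads of 50 bases, and the submitters' notes name Trim Galore 0.6.4, Salmon 1.0.0 and mm10. The authors deposited Salmon's estimated counts and TPM per transcript, in 2 files per library. The 2 files agreed more closely than independent reads would (median squared difference over the sum 0.0413 for genes of 100 to 1000 reads, where independent reads give 0.455). The labels do not say what the 2 files are, so they were added as 1 library, and TPM was averaged.

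Transcripts were assigned to genes with Gencode M21 (the methods name a later release), and 884 of 140748 transcripts, with 0.139% to 0.255% of the reads, had no match. Sums were rounded. Genes on X, Y and the mitochondrial genome were left out. The test was edgeR 4.0.16's quasi-likelihood F test (limma 3.58.1, R 4.3.3) with TMM, filterByExpr, 1 mean per group, and Benjamini-Hochberg adjustment over all genes with a threshold of 0.05. The SE is the size of the log2 fold change over the square root of F. The IRI effect is the mean of the 2 IRI groups minus that of the 2 sham groups. Counts cover sequencing depth only: PCR copies are not independent molecules.

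The 10 genes and the lists were chosen with earlier results of these data known. Named genes are the 10, Lyz1, the 3 most abundant genes of each list with any called one, and the 5 nearest in profile. Ly6g, Camp, Ltf, Vsig4, C1s1, C1ra, Aif1 and Gngt2 were named after their values were seen. Alternatives were DESeq2 1.42.0 (Wald, or apeglm 1.24.0 with s values under 0.01), its size factors, other filters, single files, other sets of libraries, the sex and mitochondrial chromosomes included, a replicate block and each library left out. Motif matches are letters, not binding sites. Promoter sequences come from RefSeq.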

Additional observations from a re-analysis of the deposited data

How the results depend on the processing

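The 10 macrophage genes kept fold changes below 0 between IRI and sham surgery in PMNs under all alternatives run, except Mrc1 (−1.07 to 5.98 with 1 library left out, 5.98 without PMNs Sham Control replicate 1). Which of them passed the threshold depended on the test. Against 0 of 10 in the main test, 6 were called by the Wald test of DESeq2, 6 without a filter on low counts, 5 of 8 with at least 10 counts in every library, 1 with all 21 libraries in one fit, 1 from the second file alone, and 0 to 3 with 1 library left out. All genes called numbered 104 in the main test, 1955 by the Wald test, 971 without a filter, 444 with at least 10 counts, and 13 to 393 with 1 library left out (393 without PMNs Sham Control replicate 1, 13 without PMNs IRI RIPC replicate 2). The adjusted p of C1qa ran from 1.13e-07 to 0.507 over its alternatives, that of C1qc from 7.16e-13 to 0.316 and that of Cx3cr1 from 4.73e-08 to 0.175. The cause of these shifts was not tested.

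With RIPC, 5 of the 10 were called by the Wald test, 6 by DESeq2 with apeglm, 7 without a filter, 1 (C1qa) with at least 10 counts, 1 (Cx3cr1) with all 21 libraries, in the compared groups alone and from the second file alone, and 0 to 1 with 1 library left out. All genes called there numbered 62, against 1660 (Wald), 1448 (apeglm), 11 (all libraries), 215 (at least 10 counts), 738 (no filter) and 2 to 204 (1 library left out). Without RIPC, 1 was called by the Wald test, 1 with apeglm, 4 without a filter and 0 to 1 with 1 library left out, and all genes called numbered 739, 494, 120 and 0 to 82. Also without RIPC, with 1 library left out, Adgre1 ran from −0.55 to 0.33 (0.13 without PMNs IRI Control replicate 1, 0.33 without PMNs Sham Control replicate 1), Mrc1 from −0.62 to 13.5 (−0.62 without PMNs Sham Control replicate 2) and Lyz2 from −1.3 to 0.16 (0.07 without PMNs IRI Control replicate 1, 0.16 without PMNs Sham Control replicate 2).

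For RIPC against control after IRI, 1 was called by the Wald test and 1 without a filter. For the interaction it was 1 and 2, for the IRI effect in PMNs against TECs 4 and 4 (0 to 1 with 1 library left out), and for TECs between IRI and sham surgery 1 by the Wald test. Shares of all genes are given above for the Wald test. None is given for these comparisons without a filter, so those counts have no background beside them. For PMNs against TECs, 1 gene, Apoe, was left to test with at least 10 counts in every library, and it was called after either surgery. After IRI 8 were called without a filter and 4 to 7 with 1 library left out, and after sham surgery 7 to 10. All genes called numbered 3725 and 1763 after IRI (Wald, no filter; 560 to 1202 with 1 library left out) and 4753 and 2222 after sham surgery (549 to 1276). Cx3cr1 after IRI ran from −0.67 to 1.72 with 1 library left out, and was −0.67 without PMNs IRI Control replicate 1.

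Replicate numbers showed no clear pairing of the libraries. Deviations from the group means of same-numbered PMN libraries correlated between −0.0209 and 0.0239, and those of differently numbered ones between −0.0239 and 0.021. Of the 10 PMN libraries, 5 correlated best with their own number. In TECs the ranges were −0.0895 to 0.11 and −0.098 to 0.0614. Groups of 2 or 3 libraries limit this check. With the replicate block, 3 of the 10 genes (C1qa, C1qb and C1qc) and 23 genes in all were called in PMNs between IRI and sham surgery, 1 gene in all with RIPC, and 1 of the 10 and 1 in all without RIPC, where Adgre1 turned to 0.01. Of the other lists in PMNs between IRI and sham surgery, the block called 0 of 15 neutrophil, 0 of 14 other macrophage, 1 of 10 monocyte and 4 of 5 MHC class II genes. Depth limits Cx3cr1 after IRI (3 to 20 reads in 4 of 5 libraries) and C1qc in TECs after IRI (at most 2 reads).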
